A study of Mus musculus with 8 samples.

Results

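The 37 genes encoded by the mouse mitochondrial genome were followed through RNA sequencing of OT-I CD8+ T cells, whose transgenic receptor recognises a peptide of ovalbumin. They are the rows that the deposited table places on chromosome MT, 37 of the 43432 genes listed, and the gene biotype parts them into 13 protein, 2 rRNA and 22 tRNA genes. Per the labels the T cells were of the C57BL/6 strain and spent 72 hours in plates with dendritic cells (DC) of a single subset that carried antigen, and those that divided were sorted for RNA. The 8 libraries comprised 3 from T cells cultured with resident DC of the CD8a+ subset (CD8a DC), 3 with migratory CD103+ DC (CD103 DC) and 2 with migratory CD11b+ DC (CD11b DC, replicates 2 and 3). The labels give neither the age of the animals nor the antigen nor how many animals each library holds. Separate cultures for the libraries of a group are not stated in the labels, so p-values measure only a spread between samples that may be technical.

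The mitochondrial genome is read from both of its strands as long transcripts, from which the mRNAs and rRNAs are released by cutting out the tRNAs that lie between them. Its mRNAs encode membrane subunits of respiratory complexes I, III, IV and V, its rRNAs build the mitochondrial ribosome, and its tRNAs serve that ribosome. The other respiratory subunits, the RNA polymerase Polrmt and the proteins that process, stabilise and translate mitochondrial RNA are encoded in the nucleus. Activated CD8+ T cells are known to expand their mitochondria as they divide.

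Of the 37 genes, 12 could not be compared, because the table lists them at 0 in all 8 libraries, and their place in the genome is shown by the plot of all members. They are the protein genes mt-Co2 and mt-Co3 (complex IV), mt-Atp6 and mt-Atp8 (complex V) and mt-Nd4l (complex I), with the tRNA genes mt-Tw, mt-Ty, mt-Ts1, mt-Td, mt-Tk, mt-Tg and mt-Th. A respiring cell uses all of these genes, so a listed 0 is not read here as absence of the RNA. Of these 12, 9 lie wholly within a stretch of chromosome MT, from 6390 to 11042 (4653 bases), with a chromosome 1 copy that is near-identical over its annotated parts. The parts in between, which hold the tRNA genes of the stretch and most of mt-Atp8, were not compared by sequence. The other 2 members wholly within that stretch were mt-Nd3 (complex I), at 15.8 to 46.2 normalized counts, and mt-Tr, at 0 to 5.4. Of the 24 members wholly outside it, 3 were listed at 0, namely mt-Tw, mt-Ty and mt-Th.

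The copy on chromosome 1 (24611535 to 24616197, minus strand, GRCm38) is annotated in GENCODE M21 as 7 unprocessed pseudogenes in the same order as the mitochondrial genes. The copies Gm28661 of mt-Co2 (681 bases), Gm10925 of mt-Atp6 (678 bases), Gm28437 of mt-Co3 (783 bases), Gm10222 of mt-Nd4l (294 bases) and Gm28439 of the first 876 bases of mt-Nd4 were 100% identical over their aligned lengths. Gm28438 matched mt-Nd3 over 342 bases from base 4 on, and Gm29216 matched the last 483 bases of mt-Co1 with 1 mismatch (99.79% identical). The bases where mitochondrial gene and copy differ are set in capitals in the pairs printed next, which show the edge of the copied stretch within mt-Co1 and the starts of a pair that differs at 1 base and a pair that does not differ. Positions count from 1 at the gene's 5′ end, and the sequences are those of the GENCODE M21 transcripts on GRCm38.
mt-Co1 (MT 6381 to 6423, plus strand): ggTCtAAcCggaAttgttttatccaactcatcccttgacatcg
Gm29216 (chromosome 1, 24616155 to 24616197, minus strand): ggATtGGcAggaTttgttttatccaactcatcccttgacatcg
mt-Nd3 (MT 9459 to 9518, plus strand): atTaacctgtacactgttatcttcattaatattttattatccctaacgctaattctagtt
Gm28438 (chromosome 1, 24613060 to 24613119, minus strand): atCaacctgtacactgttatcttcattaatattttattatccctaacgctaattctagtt
mt-Co2 (MT 7013 to 7072, plus strand): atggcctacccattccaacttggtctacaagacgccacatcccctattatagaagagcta
Gm28661 (chromosome 1, 24615506 to 24615565, minus strand): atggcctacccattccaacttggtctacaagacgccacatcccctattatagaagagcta
In the mt-Co1 pair the mismatch within the aligned bases is A1066T, and the 479 bases after it, to the end of the gene, were identical. In the mt-Nd3 pair the differing base is T3C.

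Reads that lie wholly within an identical stretch cannot be told apart from reads of the copy by sequence. Of all stretches of 50 bases in mt-Co2, 100% also occur in an annotated nuclear transcript, and the shares were 99.9% in mt-Co3, 99.5% in mt-Atp6, 98.8% in mt-Nd4l and 98% in mt-Nd3. They were 62.2% in mt-Nd4, 51.1% in mt-Co1, 8.19% in mt-Nd2, 7.61% in mt-Nd5 and 1.04% in mt-Rnr2. In mt-Nd1, mt-Nd6, mt-Cytb and mt-Rnr1 they were 0%. The shares of mt-Nd2, mt-Nd5 and mt-Rnr2 came only from annotated transcripts other than these 7 copies. Beside the copies, such other transcripts also shared stretches with mt-Co1 (Gm11512 and Gm13340), mt-Co2 (Gm13341) and mt-Atp6 (AC124578.3). No annotated nuclear transcript shares such a stretch with mt-Atp8 or with any tRNA gene. The place of mt-Tk and most of mt-Atp8 falls between annotated pseudogenes, where the gap on chromosome 1 is 233 bases long and the matching gap on chromosome MT is also 233 bases long. The gap that holds mt-Tr does not have the same length on the 2 chromosomes. The sequence of these gaps was not compared. The copies themselves carried few counts. Gm28661 had 68.0, 72.5 and 46.8 normalized counts with CD8a DC, 42.4, 25.2 and 49.4 with CD103 DC, and 48.4 and 34.1 with CD11b DC, while mt-Co2 was listed at 0 throughout. Gm28438 had 39.2 to 112.4 and Gm29216 10.3 to 43.4, and none of the other 4 copies exceeded 12.9. The part of the copies in the listed zeros was not tested, and the sources used here do not say how reads with several matches were counted. Values of mt-Nd3, mt-Nd4 and mt-Co1 are therefore uncertain in level, as are those of mt-Nd2, mt-Nd5 and mt-Rnr2 over smaller parts of their length. With stretches of 100 bases the shares were 60.8% in mt-Nd4, 30.8% in mt-Co1, 3.19% in mt-Nd2 and 0% in mt-Nd5 and mt-Rnr2. Which length applies depends on the read length, which is not given.

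**Figure D1:**
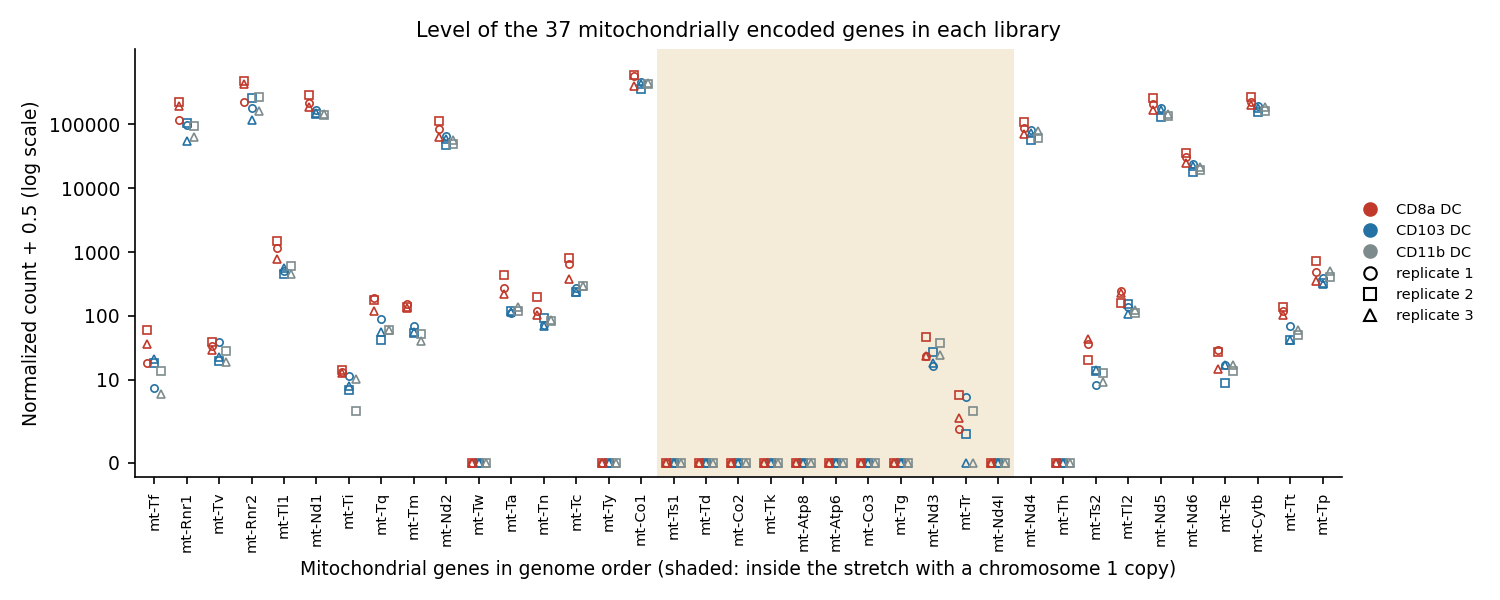
Normalized count plus 0.5 (log scale) of each of the 37 mitochondrially encoded genes in each of the 8 libraries, in genome order; red marks CD8a DC, blue CD103 DC and grey CD11b DC, and symbols mark the replicate number. Shading marks the 11 genes wholly inside the stretch with a chromosome 1 copy, 9 of which are at 0 in all libraries, with mt-Nd3 and mt-Tr the other 2.

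Among the genes with counts, levels set per length, in normalized counts per base of gene, ranged over the protein and rRNA genes other than mt-Nd3 from 47.4 in mt-Nd6 to 298 in mt-Co1 (means of 8 libraries). The mean was 188 for mt-Nd1, 172 for mt-Cytb, 167 for mt-Rnr2, 125 for mt-Rnr1, 95.2 for mt-Nd5, 64.2 for mt-Nd2 and 56.2 for mt-Nd4. If only the bases outside the stretch copied on chromosome 1 are counted as length, the mean becomes 433 for mt-Co1 and 154 for mt-Nd4, so that mt-Nd4 moves from below mt-Nd2 to above mt-Rnr1. If every stretch of 50 bases shared with any annotated nuclear transcript is left out of the length, 388 bases of mt-Co1 remain and its mean becomes 1185, while mt-Rnr2 becomes 174, mt-Nd4 154, mt-Nd5 126 and mt-Nd2 77.6. These levels depend on how reads with several matches were counted, and the last set also on the choice of 50 bases. Bases left out of the length in the last set can still be covered by reads that match nowhere else. That set may therefore overstate the levels. The order of neighbours is otherwise loose, since single libraries ranged from 147 to 297 in mt-Nd1, from 138 to 233 in mt-Cytb and from 74.8 to 297 in mt-Rnr2. mt-Nd6, the only protein gene among the 8 on the minus (light) strand, had the lowest mean of the 9 genes, at 35.2 to 69.2 per base.

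In these libraries, mitochondrial genes took a larger share of reads in T cells cultured with CD8a DC than with either migratory subset, though the test does not pass after adjustment. The 12 genes listed at 0 add no reads to this share, so it may understate the mitochondrial RNA. The share was 9.31%, 11.8% and 9.12% in the CD8a DC libraries, 7.72%, 7.0% and 6.69% in the CD103 DC libraries and 7.20% and 7.02% in the CD11b DC libraries. Every CD8a DC library stood above every migratory library, and CD8a DC replicate 2 stood highest. The means were 10.1% ± 1.47 (SD, n = 3), 7.14% ± 0.528 (SD, n = 3) and 7.11% ± 0.133 (SD, n = 2) in the same order of groups. The 95% Wilson intervals of single libraries reached at most 0.0141 percentage points to either side and cover counting error only, so the spread between libraries was far wider than the counting error. The difference of CD8a DC from the mean of the 5 migratory libraries was 2.94 percentage points (exact permutation p = 0.01786, two-sided, the smallest p that 56 assignments allow). After Benjamini-Hochberg adjustment over the 25 tests of shares the adjusted p was 0.112, which does not pass. Left out 1 library at a time, the difference lay between 2.09 points (without CD8a DC replicate 2) and 3.41 points. In the pairwise tests CD103 DC minus CD8a DC was -2.93 points and CD8a DC minus CD11b DC was 2.95 points (exact permutation p = 0.1 for each, the smallest possible), and CD103 DC minus CD11b DC was 0.0259 points (exact permutation p = 1).

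Within the mitochondrial reads the share of the rRNA genes varied widely between libraries of a group. They took 19.3%, 29.5% and 36.0% with CD8a DC, 19.2%, 28.3% and 13.9% with CD103 DC, and 26.8% and 17.4% with CD11b DC. The groups overlapped, and the difference of 7.16 percentage points between CD8a DC and the migratory libraries did not pass (exact permutation p = 0.143, adjusted p = 0.238). The tRNA genes took 0.199%, 0.190% and 0.146% with CD8a DC against 0.124% to 0.139% in the 5 migratory libraries, without overlap (exact permutation p = 0.0179, adjusted p = 0.112). mt-Nd6, a complex I subunit, took 2.12%, 2.18% and 2.22% of the mitochondrial protein-coding reads with CD8a DC, against 2.07%, 2.0% and 2.08% with CD103 DC and 1.97% and 1.99% with CD11b DC. This share did not overlap between CD8a DC and the migratory libraries either (exact permutation p = 0.0179, adjusted p = 0.112). All complex I genes together took 46.0% ± 2.30 with CD8a DC (SD, n = 3), 43.8% ± 0.790 with CD103 DC (SD, n = 3) and 41.3% ± 0.382 with CD11b DC (SD, n = 2), and the CD8a DC difference did not pass (exact permutation p = 0.0536, adjusted p = 0.179). Both protein-coding shares cover genes with counts only, since 5 of the 13 protein genes are listed at 0. Of those 5 only mt-Nd4l belongs to complex I, so both shares may stand higher than with all genes counted. None of the 5 shares passed the adjustment in any of the 25 tests. The pairwise permutation tests could not pass with any values, since their smallest possible p is 0.1. For CD8a DC against the migratory libraries the smallest possible permutation p is 0.01786. It passes over 25 tests only if nearly all other tests that are not pairwise are as low. This family of tests therefore left little room for any share to pass.

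**Figure D2:**
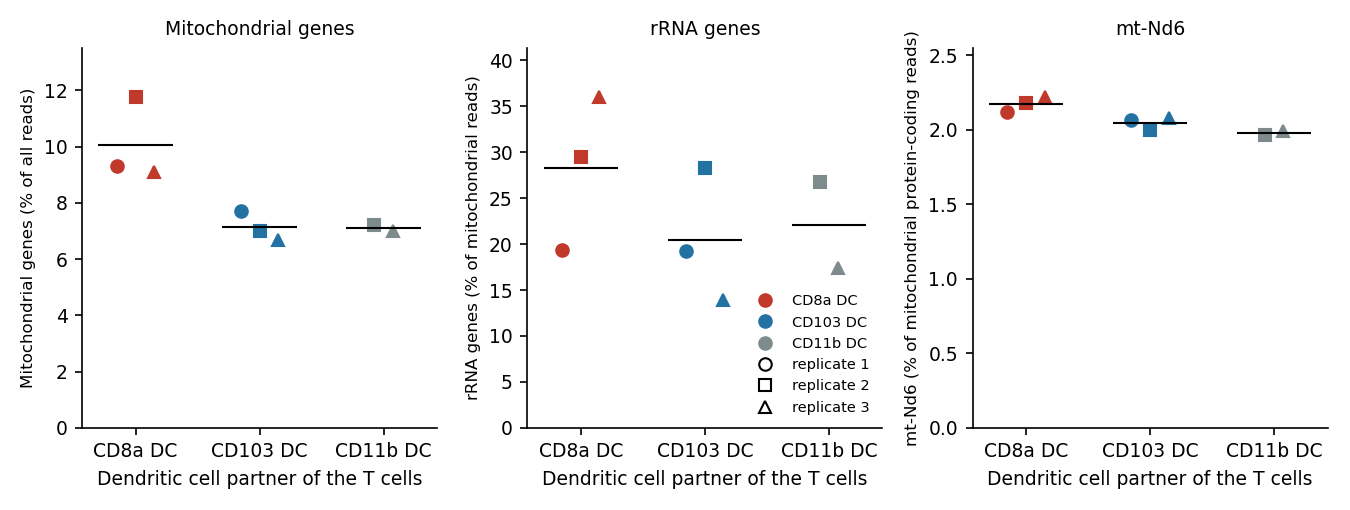
Share of all reads in mitochondrial genes (left), of mitochondrial reads in the 2 rRNA genes (middle) and of mitochondrial protein-coding reads in mt-Nd6 (right), all in percent, for each library by DC partner; bars mark group means and symbols the replicate number. The mitochondrial share was 9.12% to 11.8% with CD8a DC and 6.69% to 7.72% in the 5 migratory libraries, while the rRNA share overlapped between the groups.

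Gene by gene, the comparison of resident with migratory partners set the CD8a DC mean against the average of the CD103 DC and CD11b DC means, on log2(normalized count + 1), in 1 limma fit over 18971 genes. The threshold was an adjusted p under 0.05 by the Benjamini-Hochberg method over all of them. Of the 25 members with counts, 7 passed as higher with CD8a DC, where 1.11% of all genes tested passed in that direction, and 0 as lower, where 1.14% did. They were the protein genes mt-Nd1, mt-Nd2 and mt-Nd6, the rRNA gene mt-Rnr1 and the tRNA genes mt-Tl1, mt-Tc and mt-Ta. All 25 members had a log2 fold change above 0, with a median of 0.74, against a median of -0.04 over all genes tested. The count of 7 depended on the libraries. It was 1, 3 and 3 without CD103 DC replicates 1, 2 and 3, 3, 2 and 9 without CD8a DC replicates 1, 2 and 3, and 0 without either CD11b DC library. Without a CD11b DC library, 0 of all genes passed as well, and an unadjusted p under 0.05 was given to 15 of 25 members and 2262 of 18856 genes without CD11b DC replicate 2, and to 13 of 25 members and 2393 of 18833 genes without CD11b DC replicate 3. On the recovered reads edgeR called 8 members, where 2.84% of the genes it tested passed, and DESeq2 12, where 7.8% did, all of them higher.

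The protein genes that passed all encode membrane subunits of complex I. mt-Nd1 (ENSMUSG00000064341, MT 2751 to 3707, plus strand) had 213929, 284206 and 187804 normalized counts with CD8a DC, 170565, 143004 and 152368 with CD103 DC, and 140374 and 146300 with CD11b DC. Every CD8a DC library stood above every migratory library, and the log2 fold change was 0.60 (SE 0.11, limma adjusted p = 0.0119). It passed in all 10 other settings and in 6 of the 8 fits that left out a library, the 2 exceptions being those without a CD11b DC library. mt-Nd2 (ENSMUSG00000064345, MT 3914 to 4951, plus strand) had 83339, 111373 and 63185 normalized counts with CD8a DC, 64844, 47316 and 58401 with CD103 DC, and 48458 and 56045 with CD11b DC. CD103 DC replicate 1 lay just above CD8a DC replicate 3, and the log2 fold change was 0.63 (SE 0.15, limma adjusted p = 0.0426). Of the stretches of 50 bases in mt-Nd2, 8.19% also occur in Gm13339. mt-Nd6 (ENSMUSG00000064368, MT 13552 to 14070, minus strand) had 30346, 35913 and 24729 normalized counts with CD8a DC, 24299, 18250 and 22410 with CD103 DC, and 19410 and 21529 with CD11b DC. Its groups did not overlap, though CD103 DC replicate 1 came close, and the log2 fold change was 0.52 (SE 0.12, limma adjusted p = 0.0380). mt-Nd2 and mt-Nd6 each passed in 7 of the 10 other settings and in 1 of the 8 fits without a library. The sources used here do not say whether the counting used strand, so reads of mt-Nd6 and of the transcript opposite to it may not have been told apart.

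The remaining complex I genes did not pass. mt-Nd5 had 209561, 254616 and 165835 normalized counts with CD8a DC, 182766, 128750 and 165070 with CD103 DC, and 134824 and 147777 with CD11b DC, with a log2 fold change of 0.47 (SE 0.13, limma adjusted p = 0.0758). mt-Nd4 had a log2 fold change of 0.34 (SE 0.14, limma adjusted p = 0.261), and its CD8a DC values of 71449 to 108924 overlapped those of CD103 DC, 56490 to 82548. mt-Nd3, with 23.4, 46.2 and 23.4 counts with CD8a DC, 15.8, 27.1 and 17.7 with CD103 DC and 37.6 and 24.2 with CD11b DC, had a log2 fold change of 0.26 (SE 0.62), which was -0.06 without CD8a DC replicate 2.

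For complexes III and IV the table holds counts for 1 mitochondrial gene each. mt-Cytb, the cytochrome b of complex III, had 224247, 266943 and 201712 normalized counts with CD8a DC, 197294, 158162 and 182714 with CD103 DC, and 160338 and 187152 with CD11b DC. Its groups did not overlap, yet the log2 fold change of 0.38 (SE 0.10) did not pass with limma (adjusted p = 0.0609), while it passed with edgeR (adjusted p = 0.0468) and DESeq2 (adjusted p = 0.0259). mt-Co1, the catalytic subunit of complex IV, had 581874, 585373 and 400979 normalized counts with CD8a DC, 454064, 362159 and 426565 with CD103 DC, and 421649 and 445298 with CD11b DC. CD8a DC replicate 3 lay below 4 of the 5 migratory libraries, and the log2 fold change was 0.28 (SE 0.11, limma adjusted p = 0.246).

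**Figure D3:**
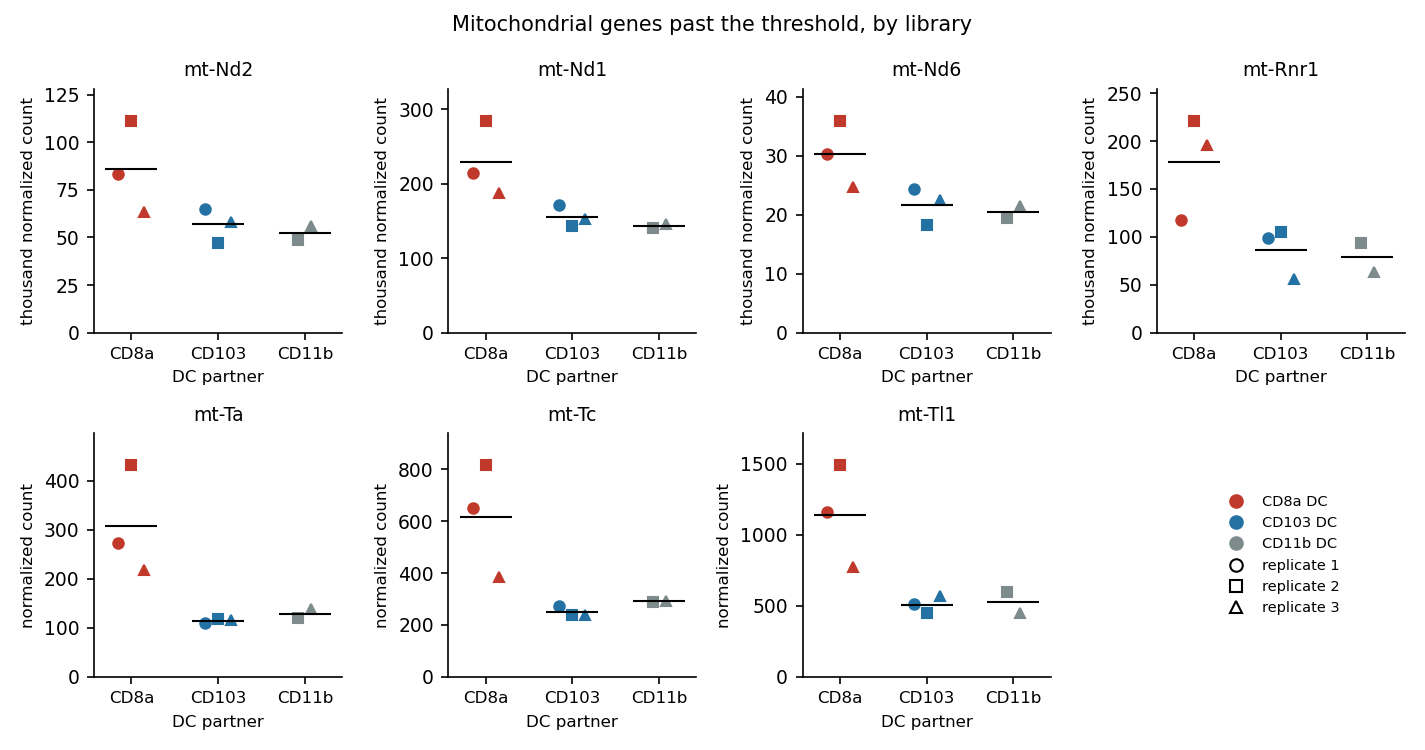
Normalized counts per library, by DC partner, of the 7 mitochondrial genes past the threshold in the comparison of CD8a DC with migratory DC; bars mark group means and symbols the replicate number. CD8a DC replicate 2 is the highest library in each panel, and only mt-Nd2 has a migratory library above a CD8a DC library.

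Of the 2 rRNA genes, mt-Rnr1 passed and mt-Rnr2 did not. mt-Rnr1 (ENSMUSG00000064337, MT 70 to 1024), the rRNA of the small ribosomal subunit, had 117924, 221235 and 195829 normalized counts with CD8a DC, 99156, 105415 and 55743 with CD103 DC, and 94050.0 and 63466 with CD11b DC. Its groups did not overlap, and the log2 fold change was 1.10 (SE 0.22, limma adjusted p = 0.0178), past the threshold in all 10 other settings and in 3 of the 8 fits without a library. mt-Rnr2, the rRNA of the large subunit, had 225562, 469246 and 432850 normalized counts with CD8a DC, 180920, 255780 and 118376 with CD103 DC, and 268092 and 164457 with CD11b DC. Here CD8a DC replicate 1 lay below 2 migratory libraries, and the log2 fold change of 0.90 (SE 0.25) did not pass (limma adjusted p = 0.0860). The ratio of mt-Rnr2 to mt-Rnr1 counts was 1.91 to 2.21 with CD8a DC, 1.82 to 2.43 with CD103 DC and 2.59 to 2.85 with CD11b DC, a description with no test.

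Of the 22 tRNA genes, 15 had a mean of at least 1 normalized count, and 3 passed, each higher with CD8a DC. They are printed here with the 3 other tRNA genes of highest mean count, with the anticodon in capitals, as the DNA letters of the GENCODE M21 transcripts on GRCm38.
mt-Tl1, leucine (MT 2676 to 2750, plus strand): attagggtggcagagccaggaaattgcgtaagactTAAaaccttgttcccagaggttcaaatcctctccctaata
mt-Tc, cysteine (MT 5192 to 5257, minus strand): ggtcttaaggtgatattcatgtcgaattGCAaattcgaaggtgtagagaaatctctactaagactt
mt-Ta, alanine (MT 5018 to 5086, minus strand): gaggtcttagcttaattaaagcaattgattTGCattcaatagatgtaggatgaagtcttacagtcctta
mt-Tp, proline (MT 15356 to 15422, minus strand): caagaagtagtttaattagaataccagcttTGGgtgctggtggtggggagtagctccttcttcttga
mt-Tl2, leucine (MT 11671 to 11741, plus strand): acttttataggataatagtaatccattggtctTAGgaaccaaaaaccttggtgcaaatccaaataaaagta
mt-Tn, asparagine (MT 5089 to 5159, minus strand): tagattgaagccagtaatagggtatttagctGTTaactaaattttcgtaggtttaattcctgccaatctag
A read within these short genes can come from a mature tRNA or from a longer transcript that still holds it, and the counts do not part them.

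mt-Tl1 (ENSMUSG00000064340), which lies between mt-Rnr2 and mt-Nd1, had 1163, 1491 and 770.1 normalized counts with CD8a DC, 510.0, 450.3 and 566.8 with CD103 DC, and 595.8 and 450.6 with CD11b DC. Its groups did not overlap, and the log2 fold change was 1.10 (SE 0.21, limma adjusted p = 0.0148). mt-Tc (ENSMUSG00000064349) had 650.6, 817.0 and 383.5 normalized counts with CD8a DC, 271.3, 239.1 and 238.6 with CD103 DC, and 290.3 and 293.4 with CD11b DC, with a log2 fold change of 1.12 (SE 0.25, limma adjusted p = 0.0313). mt-Ta (ENSMUSG00000064347) had 273.1, 431.6 and 216.7 normalized counts with CD8a DC, 110.5, 117.7 and 115.6 with CD103 DC, and 119.2 and 138.5 with CD11b DC, with a log2 fold change of 1.27 (SE 0.31, limma adjusted p = 0.0456). In these 3 genes CD8a DC replicate 2 was highest and every CD8a DC library stood above every migratory one. mt-Tl1 passed in all 10 other settings, mt-Tc in 9 and mt-Ta in 6, and in 4, 1 and 1 of the 8 fits without a library.

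The other 12 tRNA genes with counts did not pass and had log2 fold changes of 0.33 to 1.55. mt-Tp, the proline tRNA gene, had 484.1, 736.3 and 346.9 normalized counts with CD8a DC, 388.7, 332.6 and 317.9 with CD103 DC, and 403.2 and 513.2 with CD11b DC. Its groups overlapped, and its log2 fold change of 0.33 (SE 0.24, limma adjusted p = 0.575) was the lowest among the 15 tRNA genes. mt-Tl2 and mt-Tn had log2 fold changes of 0.74 (SE 0.31, limma adjusted p = 0.264) and 0.74 (SE 0.38, limma adjusted p = 0.379), without overlap between CD8a DC and migratory libraries in either. The 6 tRNA genes on the minus strand with counts had a median log2 fold change of 0.93 and the 9 on the plus strand 1.10, so the genes that stood higher with CD8a DC are annotated on both strands. As the strand setting of the counting is not given, which strand their reads came from cannot be told. Summed over all 22 tRNA genes, the normalized counts were 3534, 4453 and 2543 with CD8a DC, 1805, 1589 and 1649 with CD103 DC, and 1836 and 1824 with CD11b DC.

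Over all genes tested, 4.39% had every CD8a DC library above every migratory library. Among members with counts this held for 3 of 8 protein genes (mt-Nd1, mt-Nd6 and mt-Cytb), for mt-Rnr1 of the 2 rRNA genes and for 10 of 15 tRNA genes. The median log2 fold change was 0.43 in the 8 protein genes, 1.0 in the 2 rRNA genes and 1.10 in the 15 tRNA genes. Whether these kinds differ from each other was not tested.

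**Figure D4:**
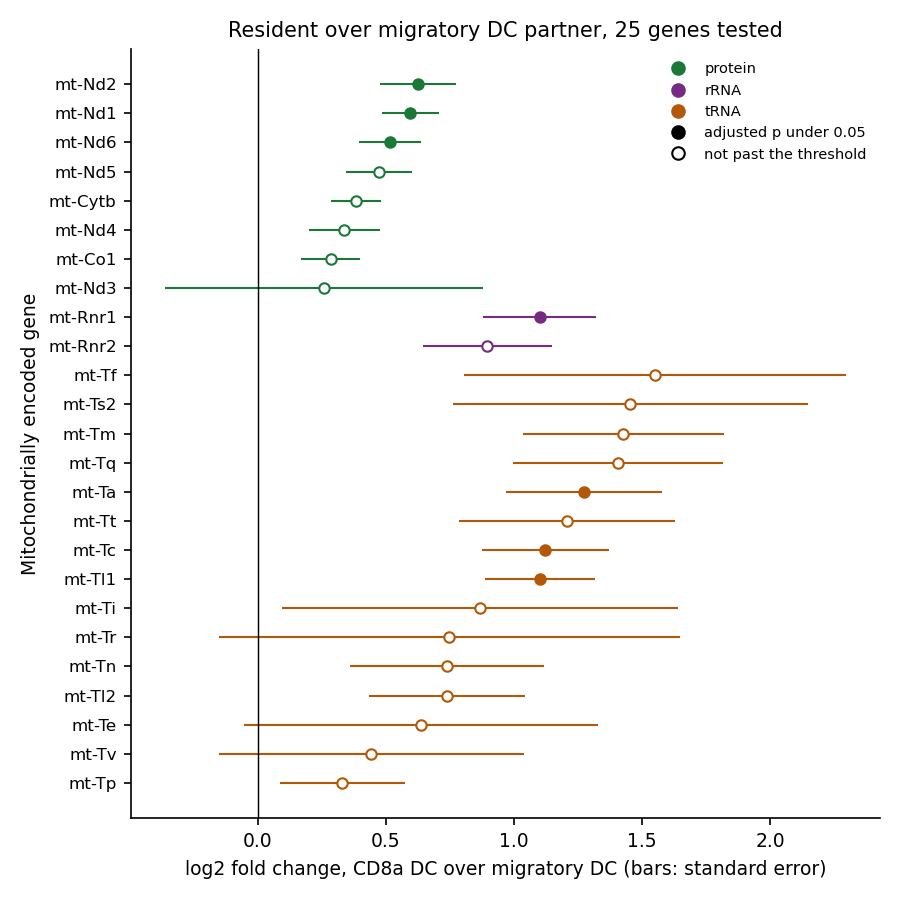
Log2 fold change of CD8a DC over migratory DC, with its standard error, for the 25 mitochondrially encoded genes tested; filled points passed at a limma adjusted p under 0.05, and colours part protein, rRNA and tRNA genes. All 25 points lie above 0, from 0.26 in mt-Nd3 to 1.55 in mt-Tf, and 7 passed.

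The pairwise comparisons share libraries with the one above and with each other, so they are not independent of it. For CD103 DC over CD8a DC, 3 members were lower with CD103 DC, where 0.548% of all genes tested passed in that direction. They were mt-Nd1 (log2 fold change -0.54, SE 0.12, limma adjusted p = 0.0448), mt-Tl1 (-1.12, SE 0.24, limma adjusted p = 0.0339) and mt-Tc (-1.24, SE 0.28, limma adjusted p = 0.0432). None passed as higher, where 0.891% of all genes tested did. All 25 members had a log2 fold change below 0, with a median of -0.67. edgeR called 4 members and DESeq2 8, all lower, where 1.7% and 5.45% of the genes they tested passed in either direction. The count was 0 without any 1 of CD103 DC replicates 1, 2 and 3, CD8a DC replicate 2 and CD11b DC replicates 2 and 3, 2 without CD8a DC replicate 1 and 9 without CD8a DC replicate 3. The authors' deposited table called 7 members lower with CD103 DC at an adjusted p under 0.05, where 5.92% of the genes with an adjusted p passed in either direction.

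For CD8a DC over CD11b DC, 2 members were higher with CD8a DC, where 1.07% of all genes tested passed in that direction. They were mt-Nd1 (log2 fold change 0.65, SE 0.14, limma adjusted p = 0.0239) and mt-Rnr1 (1.16, SE 0.27, limma adjusted p = 0.0434). edgeR called 2 members and DESeq2 10, all higher, where 2.44% and 7.07% of the genes they tested passed. The median of the 25 members was 0.77, and 24 of them were above 0, the exception being mt-Nd3 at -0.04. The count was 0 without CD103 DC replicate 1 or 2 and without either CD11b DC library, 1 without CD103 DC replicate 3 or CD8a DC replicate 2, and 8 without CD8a DC replicate 3. The authors' deposited table called 9 members higher with CD8a DC, where 7.41% of the genes with an adjusted p passed in either direction.

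T cells cultured with CD103 DC and with CD11b DC showed no difference in mitochondrially encoded genes that passed. None of the 25 members passed for CD103 DC over CD11b DC with limma, edgeR or DESeq2, where 0.332%, 0.422% and 2.93% of the genes tested passed in either direction. None had an unadjusted limma p under 0.05, and the log2 fold changes ran from -0.59 to 0.60 with a median of 0.04. mt-Nd1 had a log2 fold change of 0.11 (SE 0.14), mt-Rnr1 0.11 (SE 0.27), mt-Co1 -0.07 (SE 0.14) and mt-Tl1 -0.03 (SE 0.27). In the authors' deposited table no member passed for this pair either.

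The nuclear partners of these genes were read in the same fit. Of 52 nuclear subunits of complexes I to V, 9 were higher with CD8a DC than with the migratory partners and 0 lower, where 2.25% of all genes tested passed in either direction, and 50 had a log2 fold change above 0 (median 0.39). Of the 9, 5 belong to complex IV, whose catalytic core mt-Co1 did not pass, and 4 of these 5 were in its list. Cox6a1 had 4074, 4810 and 5070 normalized counts with CD8a DC, 2591, 2937 and 2641 with CD103 DC, and 2513 and 3040 with CD11b DC, with a log2 fold change of 0.76 (SE 0.12, limma adjusted p = 0.00454). Cox6c had 4255, 4045 and 3196 with CD8a DC, 2258, 2472 and 2541 with CD103 DC, and 2333 and 2466 with CD11b DC, with a log2 fold change of 0.66 (SE 0.12, limma adjusted p = 0.0105). Cox4i1, at 0.52 (SE 0.10, limma adjusted p = 0.0139), and Cox7a2, at 0.75 (SE 0.15, limma adjusted p = 0.0192), were the others of that list. No library of these 4 genes overlapped between CD8a DC and the migratory partners, where 4.39% of all genes tested had every CD8a DC library above. These 4 were picked for passing in the same libraries, so this is no further support. Ndufa4 (0.69, SE 0.12, limma adjusted p = 0.0106) was counted in the complex I list after its name, although its protein is a subunit of complex IV. The others in the complex I list were Ndufa1 (0.56, SE 0.13, limma adjusted p = 0.0341) and Ndufv1 (0.65, SE 0.15, limma adjusted p = 0.0345). Complex III gave Uqcr10 (0.62, SE 0.14, limma adjusted p = 0.0344) and complex V gave Atp5g3 (0.45, SE 0.10, limma adjusted p = 0.0292). None of the 4 subunits of complex II, which has no mitochondrially encoded subunit, passed, and their median was 0.38.

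The nuclear genes that read, process and translate the mitochondrial genome were counted by list, where 2.25% of all genes tested passed in either direction. In lists of this size a count of 0 or 1 cannot be told apart from that share. Of 21 genes of mitochondrial DNA transcription and maintenance, 0 were higher and 1 lower with CD8a DC (median 0.02). The lower gene was Rrm2b, a ribonucleotide reductase subunit that supplies nucleotides for mitochondrial DNA, with 368.1, 293.8 and 495.4 normalized counts with CD8a DC, 709.3, 585.7 and 550.9 with CD103 DC, and 804.5 and 774.8 with CD11b DC (log2 fold change -0.88, SE 0.20, limma adjusted p = 0.0345). Polrmt, the mitochondrial RNA polymerase, had 302.4, 155.0 and 405.9 with CD8a DC, 260.4, 205.5 and 211.6 with CD103 DC, and 243.7 and 237.4 with CD11b DC, with a log2 fold change of 0.20 (SE 0.31). Tfam, which packages the mitochondrial genome and starts its transcription, was at 0.17 (SE 0.19) and the transcription factor Tfb2m at 0.14 (SE 0.29). Of 30 genes of mitochondrial RNA processing and stability, 0 passed (median 0.01), and Lrpprc, which stabilises mitochondrial mRNAs, was at -0.13 (SE 0.19). Without a single library the sign of each of these 4 genes turned, for Polrmt and Tfam without CD8a DC replicate 3, for Tfb2m without CD8a DC replicate 2 or CD11b DC replicate 3, and for Lrpprc without CD8a DC replicate 1.

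Of 27 translation factors and tRNA ligases 0 passed (median 0.04), and of 10 chaperones and proteases 0 passed (median 0.03). Over all genes tested 2.25% passed in either direction. Among 9 regulators of mitochondrial biogenesis 1 passed, lower with CD8a DC (median -0.64), where 1.14% of all genes tested passed in that direction. It was Myc, with 616.6, 941.2 and 1152 normalized counts with CD8a DC, 1475, 1589 and 1671 with CD103 DC, and 1823 and 1411 with CD11b DC (log2 fold change -0.86, SE 0.19, limma adjusted p = 0.0267), and its groups did not overlap. Like Myc, 876 of the 18971 genes tested had every CD8a DC library below every migratory library. The coactivator gene Ppargc1b was at -1.13 (SE 0.53, limma adjusted p = 0.330), and Ppargc1a, at 0 to 44.8 counts, was at -0.85 (SE 1.16). For CD103 DC over CD8a DC, where 1.44% of all genes tested passed in either direction, 4 of the 52 respiratory subunits were lower with CD103 DC, all in complex IV (Cox6a1, Cox4i1, Cox6c and Cox8a). For CD8a DC over CD11b DC, where 1.97% passed, 6 of 52 were higher with CD8a DC. For CD103 DC over CD11b DC 0 of 52 passed with limma and with edgeR.

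**Figure D5:**
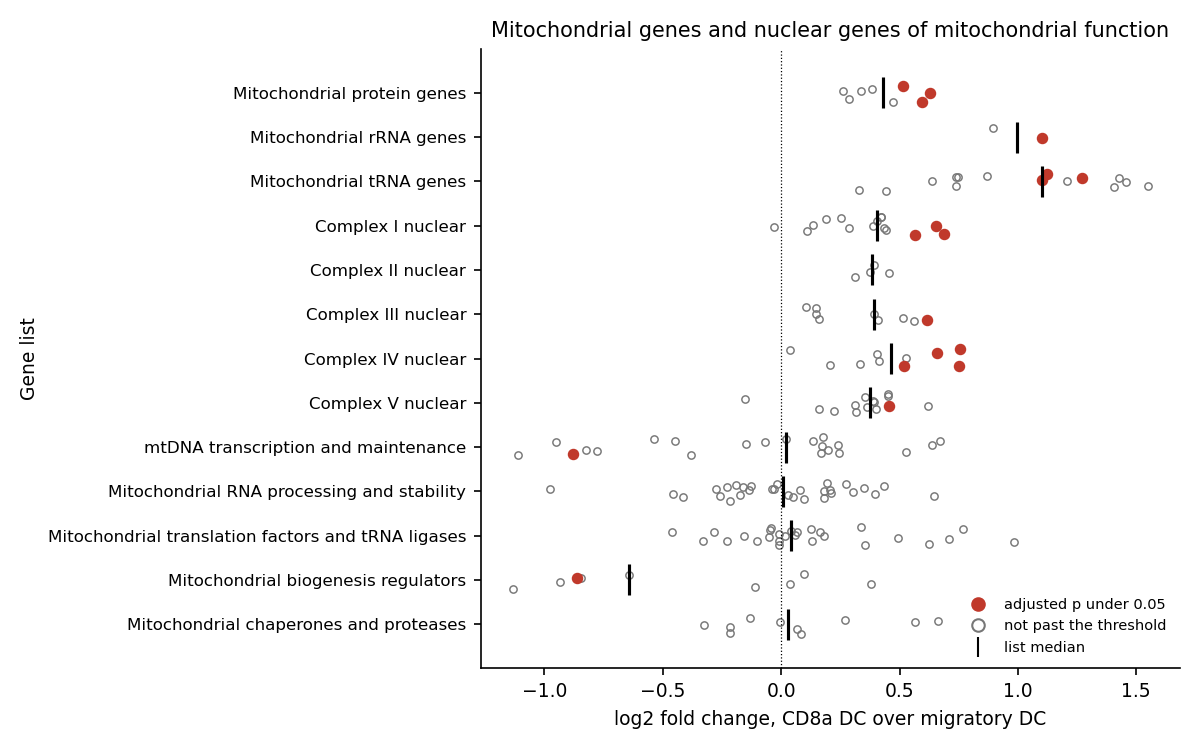
Log2 fold change of CD8a DC over migratory DC for mitochondrially encoded genes by kind, and for nuclear genes of the respiratory complexes and of mitochondrial DNA, RNA and protein upkeep; each point is a gene, red points passed at a limma adjusted p under 0.05, and bars mark list medians. The medians are 0.43, 1.0 and 1.10 for mitochondrial protein, rRNA and tRNA genes, 0.38 to 0.47 for the nuclear lists of the 5 complexes (Ndufa4 stands in that of complex I) and -0.64 to 0.04 for the other nuclear lists.

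Transcript length moved with the comparison. Among nuclear protein-coding genes with a mean of at least 10 normalized counts, the median log2 fold change of CD8a DC over migratory DC was 0.17 for the 470 genes whose longest transcript is under 1000 bases, 0.11 for 1000 to 2000 bases, 0.02 for 2000 to 4000, -0.05 for 4000 to 8000 and -0.17 for 8000 bases or more. The median longest transcript of the 52 nuclear respiratory subunits was 1240.5 bases, and their median log2 fold change was 0.39. The part of transcript length in the mitochondrial results was not tested.

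The cells carried T cell markers throughout, with none of 14 T cell identity genes at 0. These genes summed to 6390 to 7055 CPM (normalized counts scaled to a common library total) with CD8a DC, 7496 to 7670 with CD103 DC and 7562 to 8221 with CD11b DC, and Cd2 and Cd8a were lower with CD8a DC. Genes of the dendritic cell list, not all of them necessarily from partner cells, summed to 393 to 742 CPM with CD8a DC, 778 to 877 with CD103 DC and 751 to 926 with CD11b DC. Of the 20 genes 1 (Cd209a) was at 0 in all libraries and Itgax at 0 in 6 of 8. Xcr1 reached at most 2.48 CPM, while Zbtb46 was at 9.13 to 31.5 CPM and Flt3 at 4.94 to 28.7 CPM over the 8 libraries. Clec9a was at 1.84, 4.51 and 0.104 CPM with CD8a DC and at most 0.307 in the migratory libraries. Of the 19 tested, 0 were higher and 1, Ccl22, lower with CD8a DC than with the migratory partners (median log2 fold change -1.19), and 3 had a log2 fold change above 0. Over all genes tested, 1.11% passed as higher and 1.14% as lower. For CD103 DC over CD8a DC, 5 of 19 (H2-Aa, Cd83, Ccl22, Flt3 and Cd74) were higher with CD103 DC (median 0.99), where 0.891% of all genes tested were. For CD8a DC over CD11b DC, 3 of 19 (Ccl22, Sirpa and Ccl17) were lower with CD8a DC (median -0.79), where 0.901% of all genes tested were. For CD103 DC over CD11b DC, H2-Aa was higher and Sirpa lower with CD103 DC (median 0.17), where 0.132% and 0.2% of all genes tested were. B cell genes, summing to 987 to 1288 CPM with CD8a DC, 1030 to 1155 with CD103 DC and 1184 to 1228 with CD11b DC, overlapped between groups, and Ighd was higher with CD103 DC than with either other partner. The part of partner cells in the mitochondrial results was not tested, and in bulk RNA a change in the number of mitochondria per cell and a change in RNA per mitochondrion cannot be told apart. Depth was 16293041 to 21973389 recovered reads per library, of which 1193946 to 2583292 were mitochondrial. CD8a DC replicate 2 had both the deepest library and the highest mitochondrial share.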

How the data were processed

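Genes on chromosome MT were taken from the deposited table and parted by biotype; the members and gene lists were chosen with earlier results of these data known. The build GRCm38, STAR 2.4.2a and DESeq2, with no version, are named in the submitters' processing notes. The sources used here do not name the read counter, strand setting, read length or annotation release. The table holds, per the file headers, the authors' normalized counts, a signal that divides each library's counts by its size factor, and variance-stabilized log2 values. Their pairwise comparisons were deposited as a ratio (fold change) with its log2, and as a p-value before and after adjustment. The stabilized values and the percent GC, also deposited, were not used. All 8 normalized columns matched a labelled library. Low values were whole multiples of 1 step in each library, 100% of them within 0.1 of a read, which gave the recovered reads and the depths of 16293041 to 21973389 per library.

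Log2(normalized count + 1) was tested with limma-trend (limma 3.58.1 under R 4.3.3) for 18971 genes with a mean of at least 1, in 1 fit of 8 libraries with 3 group means and 5 residual degrees of freedom. Fold changes understate the change of low genes. The threshold was an adjusted p under 0.05, by Benjamini-Hochberg over the whole contrast. CD8a DC over migratory DC weights the CD103 DC and CD11b DC means equally; shares were compared with the mean of the 5 migratory libraries by exact two-sided permutation tests over libraries, adjusted over 25 tests. Alternatives were other pseudocounts, filters and scalings, edgeR 4.0.16 quasi-likelihood and DESeq2 1.42.0 on the recovered reads, a replicate block, and each library left out in turn. The fit was tested on simulated data. Named genes were all mitochondrial protein and rRNA genes, called tRNA genes and the 6 of highest mean, up to 4 called members per nuclear list and contrast, and 8 fixed nuclear genes. Coordinates are 1-based; those of all 37 members equal GENCODE M21, whose transcripts gave the sequences. Copies were found by exact matches of 50 bases and aligned by local alignment.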

Additional observations from a re-analysis of the deposited data

How the results depend on the processing

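The 16 named members with counts kept a positive log2 fold change of CD8a DC over migratory DC in every alternative fit except mt-Nd3 (-0.0573 to 0.419 without 1 library, the lowest without CD8a DC replicate 2). Counts of members passing for CD103 DC over CD8a DC, CD8a DC over CD11b DC and CD8a DC over migratory DC were 3, 2 and 7. With a pseudocount of 5 they were 1, 1 and 4, with no filter 0, 0 and 4, and with DESeq2 8, 10 and 12. Scaling by total count gave 1 for CD8a DC over CD11b DC. The replicate block gave 1 for that pair and 4 for CD8a DC over migratory DC. Without 1 library they were 0 to 9, 0 to 8 and 0 to 9.

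Over all genes DESeq2 passed 831 for CD103 DC over CD8a DC (main 273), 367 for CD103 DC over CD11b DC (63), 950 for CD8a DC over CD11b DC (374) and 1154 for CD8a DC over migratory DC (427). For CD103 DC over CD8a DC, no filter gave 159 and the block 181. Scaling by total count changed the split of higher and lower calls from 169 and 104 to 210 and 74 for CD103 DC over CD8a DC, from 203 and 171 to 166 and 215 for CD8a DC over CD11b DC, and from 211 and 216 to 150 and 295 for CD8a DC over migratory DC. Without 1 library the counts were 3 to 480 for CD103 DC over CD8a DC, 0 to 238 for CD103 DC over CD11b DC, 0 to 537 for CD8a DC over CD11b DC and 0 to 558 for CD8a DC over migratory DC.

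Members of the nuclear lists passing were 4, 0, 7 and 11 in the order CD103 DC over CD8a DC, CD103 DC over CD11b DC, CD8a DC over CD11b DC and CD8a DC over migratory DC. They were 13, 1, 20 and 26 with DESeq2, 2 in the first with the replicate block and 7 in the last with scaling by total count. Without 1 library they were 0 to 8, 0 to 1, 0 to 10 and 0 to 10.

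The CD103 DC minus CD11b DC difference in the mitochondrial share, 0.0259 points, was -0.2655 with the replicate block and -0.2655 to 0.249 without 1 library, and that in the rRNA share was -6.355 to 3.083 without 1 library. Without 1 library the log2 fold change of CD8a DC over migratory DC was -0.101 to 0.590 for Polrmt, -0.0938 to 0.303 for Tfam, -0.0535 to 0.374 for Tfb2m, -0.421 to 0.0897 for Lrpprc and -2.37 to 0.387 for Ppargc1a. For Ppargc1a it was 0.552 with edgeR and 0.557 with DESeq2. Same-numbered libraries did not visibly deviate together (correlations from -0.0196 to 0.0148), and the numbers were not taken as pairs. With so few libraries per group this check is weak and cannot show that the numbers are not pairs. The cause of these changes was not tested. Leaving out a CD11b DC library leaves 1 library in that group, assumed to vary like the others. Genes at few counts, such as mt-Nd3, mt-Tr and mt-Tf, are limited by depth.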
